A study of Danio rerio with 18 samples.

Results

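The chemokines and their receptors are small secreted proteins and the seven-pass membrane proteins that read them, and their messenger RNA was followed here in adult zebrafish ventricles. The 80 members were chosen by name, as every gene whose symbol begins with CCL, CXCL, CCR, CXCR, XCR1 or ACKR and a number, out of 32520 genes in the count tables. They comprise 34 CC ligands, 18 CXC ligands, 15 CC or XC receptors, 8 CXC receptors and 5 atypical receptors. Messenger RNA was sequenced in 5 groups of 3 libraries each. The 7 dpci group was cmcl2:Gal4-ERT2, a line whose promoter the sample titles spell cmlc2 and which carries a tamoxifen-inducible Gal4 under a cardiomyocyte promoter, sampled 7 days after a freezing injury (cryoinjury) with no drug. The GFP-HRAS rapamycin and GFP-HRAS DMSO groups were cmcl2:Gal4-ERT2;UAS:GFP-HRAS, in which Gal4 turns on the oncogene HRAS fused to a green fluorescent protein. The RFP rapamycin and RFP DMSO groups were cmcl2:Gal4-ERT2;UAS:RFP, which makes a red fluorescent protein in place of the oncogene. All 4 of these groups received 4 overnight pulses of 2.5 uM 4-hydroxytamoxifen (4-OHT) and, over 16 days, either 0.5 uM rapamycin, an inhibitor of the growth kinase TOR, or 0.05% DMSO, its vehicle. The driver is present in every group, and the promoter in front of it is that of a cardiomyocyte gene. The series title sets heart neoplasia beside regeneration, and the comparisons ask how HRAS and rapamycin changed these genes and how the hearts of the GFP-HRAS line stood beside injured hearts.

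Chemokines guide cells along a gradient: a ligand binds a G protein-coupled receptor on a leukocyte, a vessel cell or a migrating progenitor, and the cell moves. CXC and CC ligands differ in the spacing of conserved cysteines, and atypical receptors take up ligands without signalling through G proteins. In the zebrafish heart the CXCL12 and CXCR4 pair is known for guiding cardiomyocytes and coronary vessels, and many other members are known for drawing neutrophils, macrophages and lymphocytes into injured tissue. Several zebrafish members stand in tandem arrays of close copies (cxcl11, ccl34, ccl38, ccl39), so near-identical or overlapping copies may share reads and the level of any single copy is uncertain.

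Library totals ran from 15861618 to 20003711 counts, and none of 7 cardiomyocyte markers was at 0 in any group. Along the axis of largest variance, which held 64.6% of the variance of the 1000 most variable genes, GFP-HRAS rapamycin replicate 3 stood at -12.0, against 44.4 and 32.5 for the other libraries of its group. For each comparison of that group with another group, the count of called members and the sizes of the called changes are therefore given with and without it. Counts in the signalling and interferon lists are given both ways only for GFP-HRAS rapamycin against GFP-HRAS DMSO. Of 2 genes that share the symbol HRAS, ENSDARG00000098497 was higher in GFP-HRAS DMSO than in RFP DMSO (log2 fold change 2.18 ± 0.38, adjusted p = 0.00123) and ENSDARG00000005651 was lower (-1.57 ± 0.30, adjusted p = 0.00196); whether reads of the transgene count towards either gene was not tested. Nothing in the labels ties a library to its own animal or pool of animals. The p-values therefore measure only the spread between these libraries. In bulk RNA, fewer cells of a type and less RNA per cell cannot be told apart.

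Of the 80 members, 8 had no count in any of the 15 libraries, 27 had counts but fell below the expression filter, and 44 were tested in the fit of the 12 transgenic libraries. CCR7 passed the filter only in the fit of all 15 libraries, so 45 were tested there. The members without counts were ACKR3 (ENSDARG00000062478), ccl20a.3 (ENSDARG00000101040), ccl34b.1 (ENSDARG00000093608), ccl34b.3 (ENSDARG00000032993), ccl34b.4 (ENSDARG00000094002), ccl39.4 (ENSDARG00000104002), ccr12a (ENSDARG00000038541) and cxcl11.8 (ENSDARG00000095747). Between 60 and 62 members had a count in a 7 dpci library, 54 to 57 in GFP-HRAS rapamycin, 61 to 64 in GFP-HRAS DMSO, 44 to 53 in RFP rapamycin and 49 to 50 in RFP DMSO. Levels are CPM, counts scaled to a common library size with TMM factors, and are not corrected for gene length, so they compare libraries and not genes. Summed over the 80 members, the level was 337 ± 38.6 CPM in 7 dpci, 171 ± 37.6 in GFP-HRAS rapamycin, 400 ± 72.7 in GFP-HRAS DMSO, 109 ± 17.2 in RFP rapamycin and 92.1 ± 16.4 in RFP DMSO (SD, n = 3 each).

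**Figure D1:**
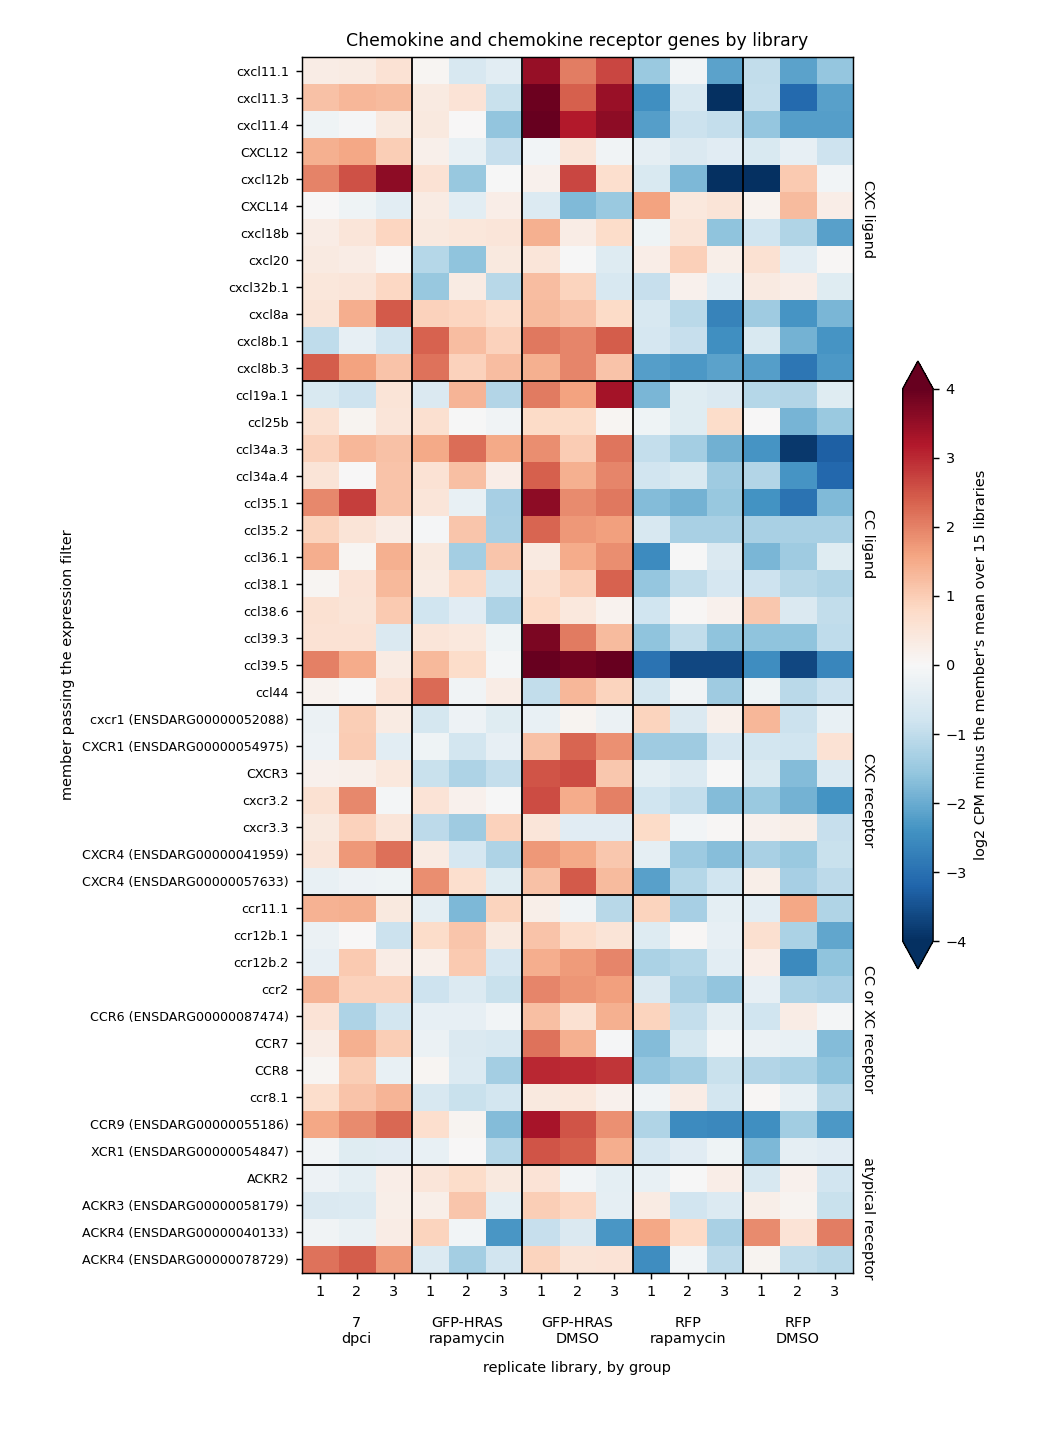
Heat map of the 45 tested members (rows, by class) in the 15 libraries (columns, by group); colour is the log2 CPM of a library minus that member's mean over all 15 libraries. CCR8 is above its own mean in the 3 libraries of GFP-HRAS DMSO, and CXCL12 in the 3 libraries of 7 dpci.

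GFP-HRAS DMSO against RFP DMSO asks what the oncogene changed. Most tested members rose: 27 of the 80, of which 44 were tested, were called higher and 2 lower at an adjusted p under 0.05, where 24.9% of all 16044 genes tested were called higher and 22.6% lower. The higher calls were 10 CC ligands, 7 CXC ligands, 5 CXC receptors and 5 CC or XC receptors, and the lower calls were the CXC ligand CXCL14 and 1 of 2 genes named ACKR4. Of the 44 tested members, 8 reached the filter's cutoff in 1 of the 5 groups only, GFP-HRAS DMSO. These were ccl19a.1, ccl35.2, ccl39.3, cxcl11.1, cxcl11.4, CXCR1 (ENSDARG00000054975), XCR1 (ENSDARG00000054847) and CCR6 (ENSDARG00000087474). All but CCR6 were among the higher calls. The higher calls ccr2, CXCR3, ccl36.1 and ccl38.1 reached the cutoff only in GFP-HRAS DMSO and 7 dpci. The 7 dpci libraries are not in the fit of this comparison. All these members entered the test through the group where they were high, so their calls are not independent of the filter. Of the 4 groups in this fit, ACKR4 (ENSDARG00000040133), a lower call, reached the cutoff in all 3 libraries only in RFP DMSO. Some libraries of the other groups passed it too. Scaling by library totals in place of TMM factors moved the median log2 fold change of all genes to 0.49, called 6084 genes higher and 1812 lower in place of 3991 and 3630, and gave 32 members higher and 2 lower. Marker lists of other cell types moved in the same comparison. The summed level of 12 macrophage markers was 3258 to 4682 CPM in GFP-HRAS DMSO and 97.0 to 293 CPM in RFP DMSO, and 8 of the 12 were called higher; 1 MPEG1 gene was at 0 in both groups. The sum of 9 T cell markers was 28.5 to 85.2 CPM in GFP-HRAS DMSO and 1.49 to 3.20 CPM in RFP DMSO, with 5 called higher; cd4-1 and lck were at 0 in RFP DMSO. The sum of 9 neutrophil markers was 102 to 152 CPM in GFP-HRAS DMSO and 71.2 to 116 CPM in RFP DMSO, with 1 called higher and 2 lower; lyz was at 0 in both groups. The sum of 10 natural killer or cytotoxic cell markers was 72.7 to 512 CPM in GFP-HRAS DMSO and 0.883 to 1.37 CPM in RFP DMSO, and the 5 tested were called higher. The cardiomyocyte sum was 12828 to 18355 CPM in GFP-HRAS DMSO and 29544 to 31062 CPM in RFP DMSO, with 5 of 7 called lower. Of 9 endothelial markers 6 were called lower and 1 higher, and of 10 epicardial and fibroblast markers 5 were higher and 1 lower. The part of these cell types in the results was not tested.

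**Figure D2:**
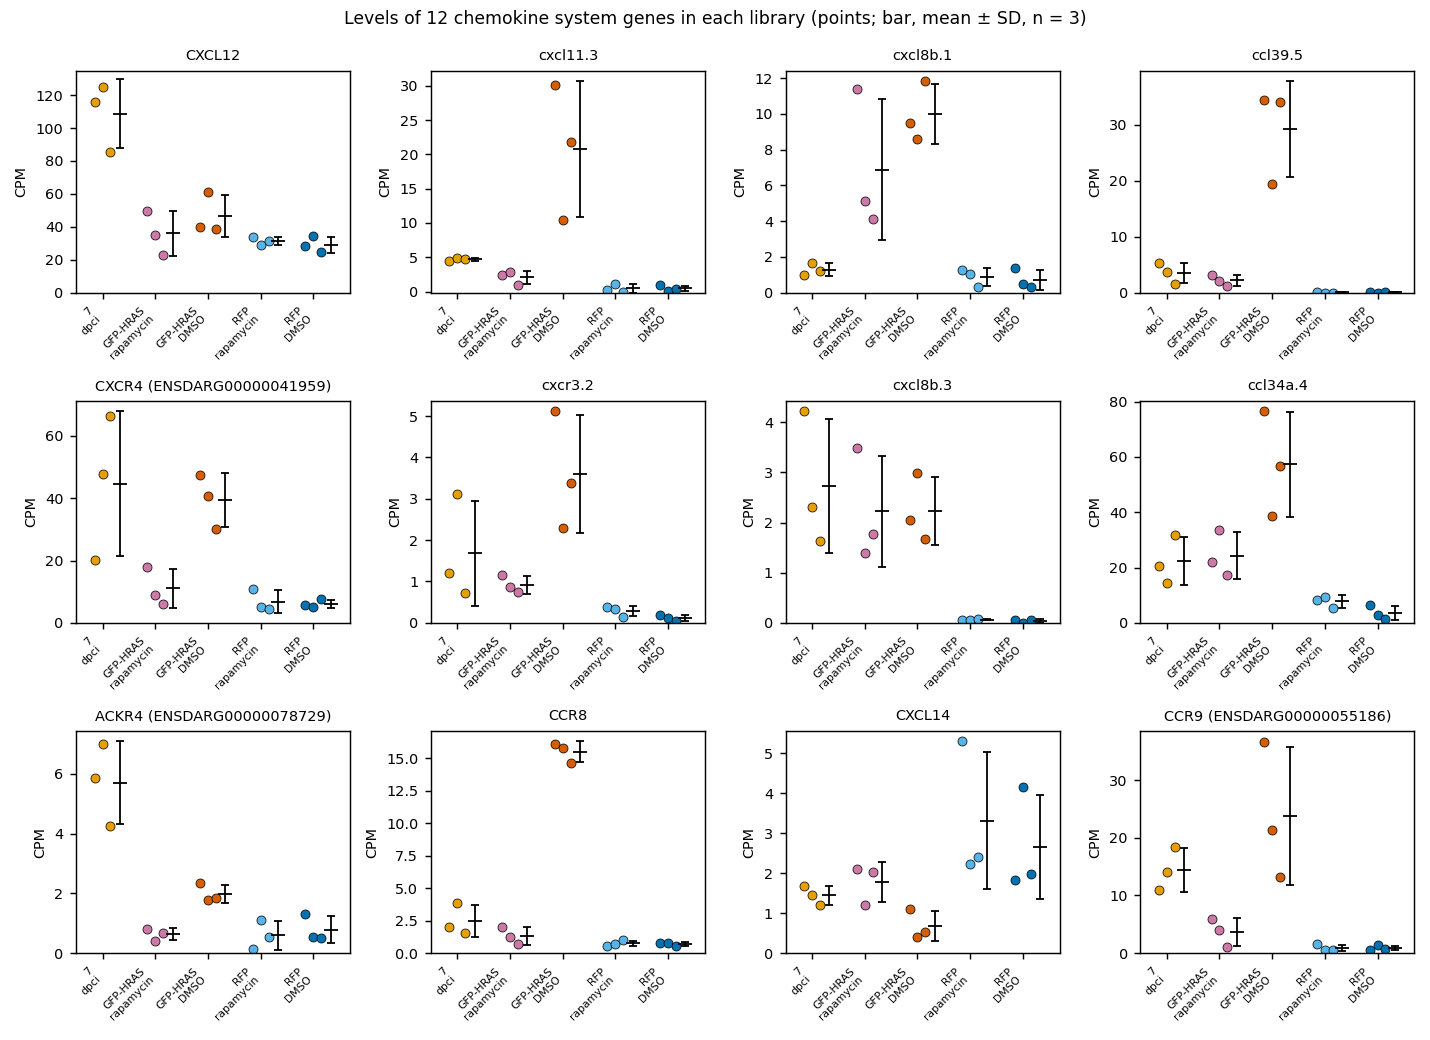
CPM of 12 members in each library (points) with the group mean and SD (bars), 1 panel per gene and 1 column per group. CXCL12 was highest in the 3 libraries of 7 dpci, whereas ccl39.5, cxcl11.3 and CCR8 were highest in the 3 libraries of GFP-HRAS DMSO.

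Among the CXC ligands, with effects given as the log2 fold change ± standard error of the edgeR fit here and in what follows, those known as neutrophil attractants through CXCR1 and CXCR2 rose. cxcl8b.1 (ENSDARG00000102299) had 9.5, 8.6 and 11.8 CPM in GFP-HRAS DMSO and 1.37, 0.489 and 0.331 CPM in RFP DMSO. The groups did not overlap, and the log2 fold change was 3.79 ± 0.61 (adjusted p = 0.000858). cxcl8b.3 (ENSDARG00000099169) had 2.05, 2.99 and 1.67 CPM in GFP-HRAS DMSO against 0.0653, 0 and 0.0552 CPM in RFP DMSO. Because that group held 1 to 3 counts in all, a ratio of scaled counts is given with its interval for counting error, 55.8 (95% interval 15.2 to 465, adjusted p = 0.000282). cxcl8a (ENSDARG00000104795) had 2.74, 2.46 and 1.87 CPM in GFP-HRAS DMSO and 0.326, 0.122 and 0.221 CPM in RFP DMSO, with a log2 fold change of 3.37 ± 0.56 (adjusted p = 0.000982). Every GFP-HRAS DMSO library lay above every RFP DMSO library for both. cxcl18b (ENSDARG00000075045), a zebrafish ligand that also draws neutrophils, averaged 32.6 ± 12.9 CPM in GFP-HRAS DMSO and 7.07 ± 3.14 CPM in RFP DMSO (SD, n = 3 each), with a log2 fold change of 2.21 ± 0.50 (adjusted p = 0.0045).

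The 3 tested ligands of the tandem cxcl11 array, whose mammalian counterparts are induced by interferon and bind CXCR3, also rose. cxcl11.3 (ENSDARG00000102514) had 30.1, 10.4 and 21.8 CPM in GFP-HRAS DMSO and 0.914, 0.122 and 0.331 CPM in RFP DMSO, a log2 fold change of 5.52 ± 0.90 (adjusted p = 0.000912). cxcl11.4 (ENSDARG00000101138) had 9.64, 4.38 and 5.94 CPM in GFP-HRAS DMSO and 0.0653, 0 and 0 CPM in RFP DMSO, and the ratio of counts was 326 (95% interval 58.2 to 12895) with an adjusted p of 0.000333. cxcl11.1 (ENSDARG00000100662) had 5.25, 1.84 and 2.95 CPM in GFP-HRAS DMSO and 0.131, 0 and 0.0552 CPM in RFP DMSO, and the ratio of counts was 54.4 (95% interval 18.4 to 266) with an adjusted p of 0.00087. For each of the 3, every GFP-HRAS DMSO library lay above every RFP DMSO library. Of the copies below the filter, cxcl11.5 (adjusted p = 0.0578) and cxcl11.6 (0.696) were not called when no filter was used, cxcl11.7 was, and cxcl11.8 had no count. Among the 20 genes of an interferon list, 11 of 17 tested were called higher and none lower, where 24.9% and 22.6% of all genes tested were. Their median log2 fold change was 2.94, against 0.02 over all genes.

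CXCL12 (ENSDARG00000037116), the ligand of CXCR4, had 39.8, 61.1 and 38.8 CPM in GFP-HRAS DMSO and 28.5, 34.2 and 24.5 CPM in RFP DMSO; the libraries did not overlap but the gene did not pass the test (0.68 ± 0.28, adjusted p = 0.06). Scaling by library totals (adjusted p = 0.01), DESeq2 (0.0396) and a fit of the 2 groups alone (0.0353) called it higher. cxcl12b (ENSDARG00000055100) averaged 12.3 ± 12 CPM in GFP-HRAS DMSO and 4.02 ± 4.2 CPM in RFP DMSO with overlapping libraries (1.62 ± 1.14, adjusted p = 0.26). CXCL14 (ENSDARG00000056627), a chemokine of epithelia, fell: it had 1.1, 0.41 and 0.518 CPM in GFP-HRAS DMSO and 1.83, 4.16 and 1.99 CPM in RFP DMSO, every GFP-HRAS DMSO library being the lower (-1.97 ± 0.52, adjusted p = 0.00988). cxcl20 (ENSDARG00000075163) and cxcl32b.1 (ENSDARG00000071499) had log2 fold changes of -0.10 ± 0.49 (adjusted p = 0.882) and 0.62 ± 0.62 (adjusted p = 0.426).

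The CC ligands rose in 10 of 12 tested cases, and most of these belong to fish lineages without a clear mammalian counterpart. ccl39.5 (ENSDARG00000098460) had 34.3, 19.4 and 34 CPM in GFP-HRAS DMSO and 0.131, 0 and 0.11 CPM in RFP DMSO, the largest log2 fold change among the tested members, 8.4 ± 0.65 (adjusted p = 6.89e-05). ccl34a.4 (ENSDARG00000090873) had 76.5, 38.8 and 56.6 CPM in GFP-HRAS DMSO and 6.33, 2.75 and 1.54 CPM in RFP DMSO (4.03 ± 0.50, adjusted p = 0.000343). Neither gene's groups overlapped. ccl34a.3 (ENSDARG00000094983) had 5.53, 3.07 and 6.82 CPM in GFP-HRAS DMSO and 0.196, 0 and 0.0552 CPM in RFP DMSO (5.88 ± 0.67, adjusted p = 0.00026). ccl35.1 (ENSDARG00000103466) had 26.9, 8.23 and 9.65 CPM in GFP-HRAS DMSO and 0.326, 0.183 and 0.552 CPM in RFP DMSO (5.36 ± 0.66, adjusted p = 0.000329), with GFP-HRAS DMSO replicate 1 well above the other 2. ccl35.2 (ENSDARG00000070378) had 1.23, 0.778 and 0.718 CPM in GFP-HRAS DMSO and no count in any RFP DMSO library, which makes it at least 14.9-fold higher against a floor of 3 counts over that group (adjusted p = 0.00416).

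ccl39.3 (ENSDARG00000100295) had 4.38, 1.27 and 0.678 CPM in GFP-HRAS DMSO and 0, 0 and 0.0552 CPM in RFP DMSO, a ratio of counts of 100.5 (95% interval 17.7 to 3995, adjusted p = 0.0011). ccl19a.1 (ENSDARG00000058389), whose mammalian counterpart draws lymphocytes and dendritic cells through CCR7, had 1.51, 1.07 and 3.71 CPM in GFP-HRAS DMSO and 0.0653, 0.0611 and 0.165 CPM in RFP DMSO (4.31 ± 0.99, adjusted p = 0.00489). The highest library of both was in GFP-HRAS DMSO, and the highest value came from replicate 1 for ccl39.3 and replicate 3 for ccl19a.1. ccl25b (ENSDARG00000070873), a relative of the CCL25 that binds CCR9, averaged 10.9 ± 2.78 CPM in GFP-HRAS DMSO and 3.98 ± 3.01 CPM in RFP DMSO (1.47 ± 0.50, adjusted p = 0.0304). ccl36.1 (ENSDARG00000105263) averaged 1.47 ± 0.723 CPM in GFP-HRAS DMSO and 0.173 ± 0.14 CPM in RFP DMSO (3.01 ± 0.96, adjusted p = 0.0238). ccl38.1 (ENSDARG00000041919) averaged 2.45 ± 1.75 CPM in GFP-HRAS DMSO and 0.324 ± 0.0602 CPM in RFP DMSO (2.9 ± 0.62, adjusted p = 0.00342). The log2 fold changes of ccl38.6 (ENSDARG00000041923) and ccl44 (ENSDARG00000074772) were 0.38 ± 0.58 (adjusted p = 0.604) and 1.73 ± 0.92 (adjusted p = 0.14), and neither was called.

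Among the receptors for CXC ligands, CXCR4 (ENSDARG00000041959) rose. It had 47.6, 40.6 and 30.3 CPM in GFP-HRAS DMSO and 5.81, 5.07 and 7.61 CPM in RFP DMSO (2.68 ± 0.44, adjusted p = 0.000963). The other gene with this symbol, CXCR4 (ENSDARG00000057633), had 2.92, 7.33 and 3.15 CPM in GFP-HRAS DMSO and 1.5, 0.428 and 0.552 CPM in RFP DMSO (2.44 ± 0.70, adjusted p = 0.0149). Both CXCR4 genes were higher in every GFP-HRAS DMSO library. cxcr3.2 (ENSDARG00000041041), a zebrafish receptor that recruits macrophages, had 5.11, 2.29 and 3.39 CPM in GFP-HRAS DMSO and 0.196, 0.122 and 0.0552 CPM in RFP DMSO (4.81 ± 0.55, adjusted p = 0.00025). CXCR3 (ENSDARG00000007358) had 3.15, 3.32 and 1.08 CPM in GFP-HRAS DMSO and 0.261, 0.0611 and 0.276 CPM in RFP DMSO (3.61 ± 0.59, adjusted p = 0.000877). cxcr3.3 (ENSDARG00000070669), described as a scavenger in zebrafish, averaged 1.37 ± 0.592 CPM in GFP-HRAS DMSO and 1.35 ± 0.553 CPM in RFP DMSO (0.03 ± 0.64, adjusted p = 0.977), and its libraries overlapped. Of the genes named after CXCR1, a neutrophil receptor, CXCR1 (ENSDARG00000054975) averaged 0.939 ± 0.402 CPM in GFP-HRAS DMSO and 0.152 ± 0.155 CPM in RFP DMSO (2.54 ± 0.72, adjusted p = 0.0135). cxcr1 (ENSDARG00000052088) averaged 0.572 ± 0.108 CPM in GFP-HRAS DMSO and 0.855 ± 0.792 CPM in RFP DMSO (-0.56 ± 0.63, adjusted p = 0.485).

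The CC and XC receptors rose in 5 of 9 tested cases. CCR8 (ENSDARG00000086616), a receptor of T cells in mammals, had 16.1, 15.8 and 14.6 CPM in GFP-HRAS DMSO and 0.783, 0.734 and 0.552 CPM in RFP DMSO (4.49 ± 0.38, adjusted p = 9.11e-05). CCR9 (ENSDARG00000055186), in mammals the receptor for CCL25 on T cells homing to thymus and gut, had 36.8, 21.5 and 13.2 CPM in GFP-HRAS DMSO and 0.588, 1.35 and 0.662 CPM in RFP DMSO (4.78 ± 0.69, adjusted p = 0.000532). The CCR9 libraries of GFP-HRAS DMSO spread widely, and the lowest was still above every RFP DMSO library. ccr2 (ENSDARG00000079829), a receptor of monocytes, had 2.01, 1.76 and 1.59 CPM in GFP-HRAS DMSO and 0.326, 0.122 and 0.11 CPM in RFP DMSO (3.24 ± 0.51, adjusted p = 0.000772). XCR1 (ENSDARG00000054847), which marks cross-presenting dendritic cells in mammals, had 2.05, 1.84 and 0.917 CPM in GFP-HRAS DMSO and 0, 0.183 and 0.165 CPM in RFP DMSO (3.68 ± 0.71, adjusted p = 0.00198). ccr12b.2 (ENSDARG00000026417) averaged 4.34 ± 0.77 CPM in GFP-HRAS DMSO and 0.652 ± 0.743 CPM in RFP DMSO (2.75 ± 0.71, adjusted p = 0.00896). The log2 fold changes of ccr12b.1 (ENSDARG00000059410), ccr8.1 (ENSDARG00000095789) and ccr11.1 (ENSDARG00000070755) were 1.47 ± 0.70 (adjusted p = 0.105), 0.80 ± 0.41 (adjusted p = 0.128) and -0.73 ± 0.88 (adjusted p = 0.513). With library totals, ccr12b.1 (adjusted p = 0.0368) and ccr8.1 (0.0307) were called higher, and without RFP DMSO replicate 1 the log2 fold change of ccr12b.1 was 3.16 (adjusted p = 0.00346). CCR6 (ENSDARG00000087474), in mammals the receptor for CCL20, had 1.37, 0.86 and 1.59 CPM in GFP-HRAS DMSO and 0.261, 0.673 and 0.496 CPM in RFP DMSO (1.41 ± 0.56, adjusted p = 0.0578); DESeq2 called it (adjusted p = 0.0428), as did scaling by library totals (0.0192).

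Among the atypical receptors, ACKR4 (ENSDARG00000040133), 1 of 2 genes named after a scavenger of CCL19, CCL21 and CCL25, fell. It had 0.822, 1.07 and 0.239 CPM in GFP-HRAS DMSO and 6.4, 2.45 and 7.17 CPM in RFP DMSO, the groups did not overlap, and the log2 fold change was -2.9 ± 0.90 (adjusted p = 0.0204). The other gene, ACKR4 (ENSDARG00000078729), had 2.33, 1.76 and 1.83 CPM in GFP-HRAS DMSO and 1.31, 0.55 and 0.496 CPM in RFP DMSO and was not called (1.34 ± 0.60, adjusted p = 0.0856); scaling by library totals (0.0278), a fit of the 2 groups alone (0.0365) and the fit without RFP DMSO replicate 1 (0.0441) called it higher. ACKR3 (ENSDARG00000058179), which takes up CXCL12, averaged 8.37 ± 3.6 CPM in GFP-HRAS DMSO and 5.09 ± 1.9 CPM in RFP DMSO (0.72 ± 0.48, adjusted p = 0.236). ACKR2 (ENSDARG00000086314), which takes up inflammatory CC ligands, averaged 1.37 ± 0.527 CPM in GFP-HRAS DMSO and 0.989 ± 0.415 CPM in RFP DMSO (0.47 ± 0.40, adjusted p = 0.348).

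Of the 29 calls, 24 held in every alternative fit and 5 were lost when a library was left out. The call of ccl25b was lost when GFP-HRAS DMSO replicate 1 (adjusted p = 0.0699), GFP-HRAS DMSO replicate 2 (0.0874), RFP DMSO replicate 2 (0.107) or RFP DMSO replicate 3 (0.111) was left out. The call of ccl36.1 was lost when GFP-HRAS DMSO replicate 2 (adjusted p = 0.0547), GFP-HRAS DMSO replicate 3 (0.0703), RFP DMSO replicate 1 (0.0754) or RFP DMSO replicate 2 (0.0828) was left out. That of CXCR1 (ENSDARG00000054975) was lost when GFP-HRAS DMSO replicate 2 (adjusted p = 0.0551), RFP DMSO replicate 1 (0.052) or RFP DMSO replicate 2 (0.0626) was left out. That of CXCR4 (ENSDARG00000057633) was lost when GFP-HRAS DMSO replicate 2 (adjusted p = 0.0686), RFP DMSO replicate 2 (0.0612) or RFP DMSO replicate 3 (0.0599) was left out. That of ACKR4 (ENSDARG00000040133) was lost when GFP-HRAS DMSO replicate 3 (adjusted p = 0.0682) or RFP DMSO replicate 3 (0.0583) was left out.

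Of the members below the filter, 8 were called in this comparison when no filter was used. That fit tested 71 members in all and called 34 higher and 3 lower, and it called 7491 of all genes. CXCR5 (ENSDARG00000010514), the receptor of B cells that enter follicles, had 41, 26 and 4 counts in GFP-HRAS DMSO and 1, 1 and 1 counts in RFP DMSO. CCR7 (ENSDARG00000044561) had 33, 21 and 6 counts in GFP-HRAS DMSO and 3, 3 and 0 counts in RFP DMSO. These totals rest on few reads. ccl39.6 (ENSDARG00000105089) had 10, 3 and 104 counts in GFP-HRAS DMSO and 0, 0 and 0 counts in RFP DMSO, and ccl39.1 (ENSDARG00000101041) had 1, 4 and 67 in GFP-HRAS DMSO and 0, 0 and 0 in RFP DMSO, so nearly all the reads of both came from GFP-HRAS DMSO replicate 3. ccl39.2 (ENSDARG00000102945) had 13, 6 and 28 counts in GFP-HRAS DMSO and 0, 0 and 0 counts in RFP DMSO, cxcl11.7 (ENSDARG00000093779) 16, 2 and 6 in GFP-HRAS DMSO and 0, 0 and 0 in RFP DMSO, and ccl34b.8 (ENSDARG00000093098) 18, 9 and 6 in GFP-HRAS DMSO and 0, 1 and 0 in RFP DMSO. ccl38a.4 (ENSDARG00000041917), the only one of the 8 called lower, had 0, 0 and 0 counts in GFP-HRAS DMSO and 7, 0 and 2 counts in RFP DMSO. The neutrophil ligand cxcl18a.1 (ENSDARG00000111840) had 84 counts over the 15 libraries and was not called.

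GFP-HRAS rapamycin against GFP-HRAS DMSO asks what rapamycin did to these genes in the oncogene line. 14 of the 80 members (44 tested) were called lower and none higher, where 6.3% of all genes tested were called lower and 5.83% higher. They were 4 CC or XC receptors, 4 CXC receptors, 3 CC ligands and 3 CXC ligands. Among them, cxcl11.1, cxcl11.4, ccl39.3, CXCR1 (ENSDARG00000054975) and XCR1 (ENSDARG00000054847) reached the filter's cutoff only in GFP-HRAS DMSO. CXCR3 and ccr2 reached it only there and in 7 dpci, which is not in the fit of this comparison. The calls of all these members are not independent of the filter. With scaling by library totals the median log2 fold change of all genes was -0.44, and 254 genes were called higher and 3218 lower in place of 936 and 1011. That scaling called 21 members lower, in place of 14, and 0 higher. Without GFP-HRAS rapamycin replicate 3, the library that stood apart, 7 members were called lower, where 2.85% of all genes tested were. In that fit the log2 fold changes of the 14 ran from -3.83 to -1.54, each within 0.484 of its value with that library. The count was 8 without GFP-HRAS rapamycin replicate 2 and 9 without GFP-HRAS DMSO replicate 2. Those 2 fits called 692 and 533 genes in all, in place of 1947. The macrophage marker sum was 141 to 453 CPM in GFP-HRAS rapamycin and 3258 to 4682 CPM in GFP-HRAS DMSO, with 5 of 12 markers called lower, and the T cell marker sum was 2.51 to 7.23 CPM in GFP-HRAS rapamycin and 28.5 to 85.2 CPM in GFP-HRAS DMSO, with 4 of 9 called lower; cd8b and lck were at 0 in GFP-HRAS rapamycin. The neutrophil marker sum was 64.5 to 114 CPM in GFP-HRAS rapamycin and 102 to 152 CPM in GFP-HRAS DMSO, with 1 of 9 called lower. The natural killer or cytotoxic sum was 19.0 to 67.5 CPM in GFP-HRAS rapamycin and 72.7 to 512 CPM in GFP-HRAS DMSO, with 1 of 10 called lower. The cardiomyocyte sum was 26511 to 35673 CPM in GFP-HRAS rapamycin and 12828 to 18355 CPM in GFP-HRAS DMSO, with 4 of 7 called higher, and 3 of 9 endothelial markers were called higher. Without GFP-HRAS rapamycin replicate 3, which had the highest cardiomyocyte sum of its group, 1 cardiomyocyte and 2 endothelial markers were called higher. In that fit 4 macrophage, 4 T cell, 1 neutrophil and 1 natural killer or cytotoxic markers were called lower. The part of these cell types in the result was not tested.

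**Figure D3:**
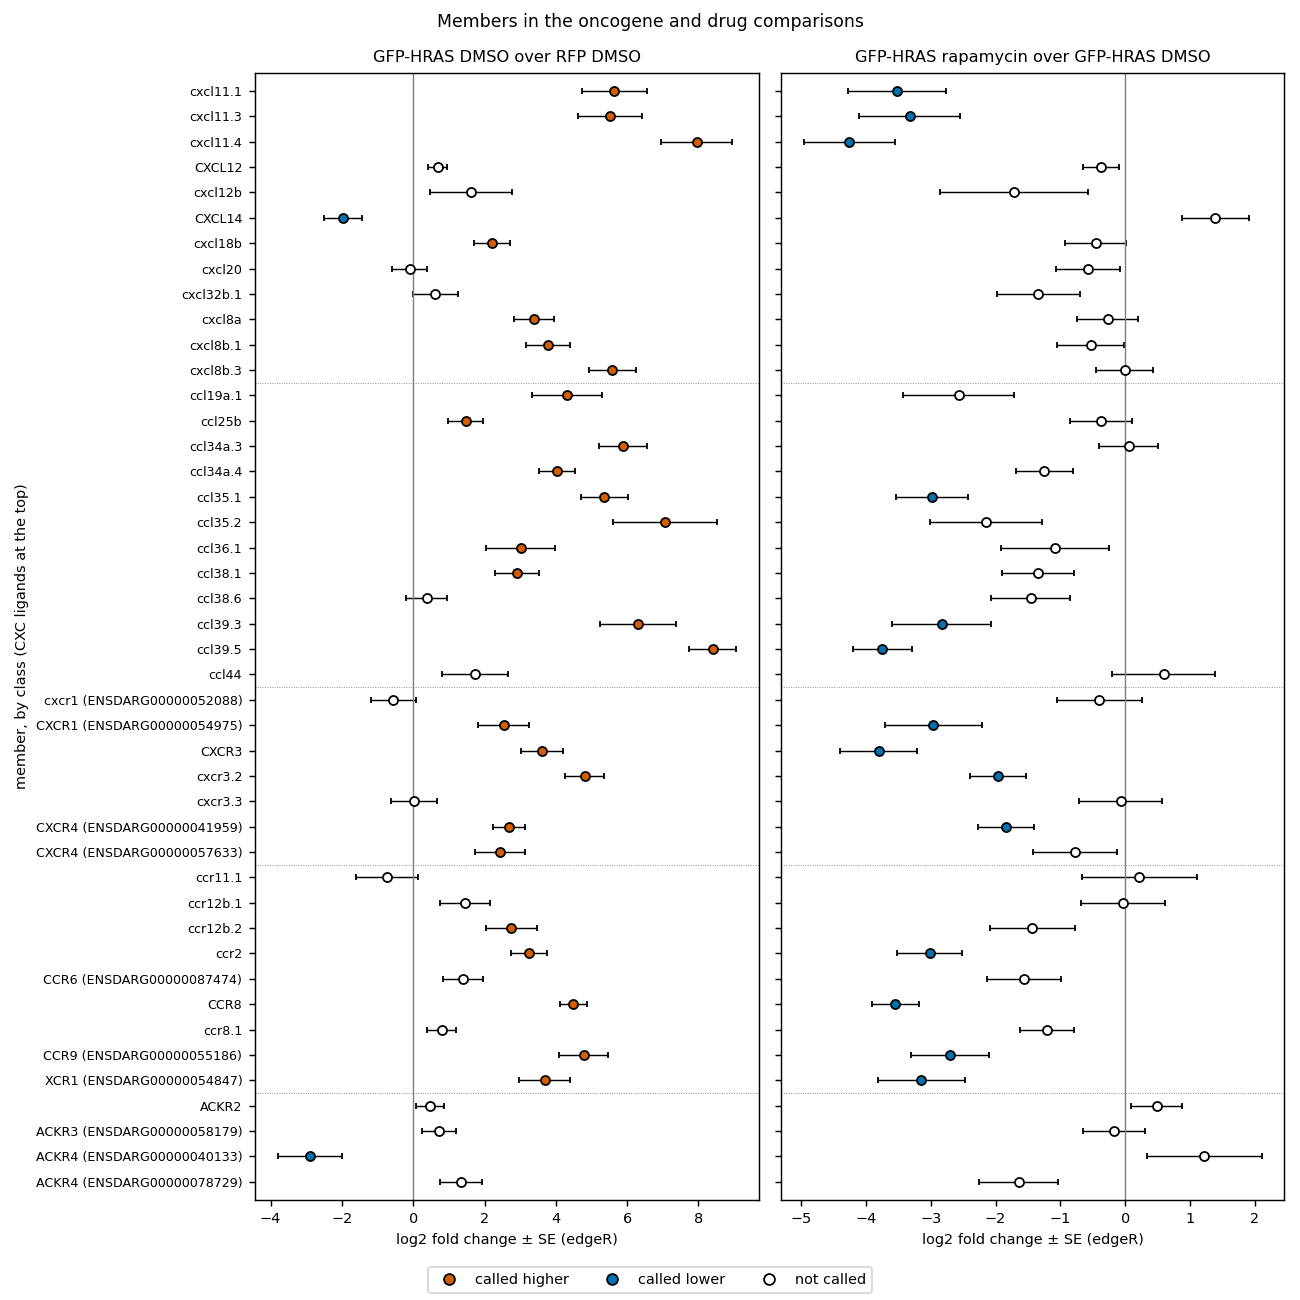
Log2 fold change ± standard error of the 44 members tested in both, by class, for GFP-HRAS DMSO over RFP DMSO and for GFP-HRAS rapamycin over GFP-HRAS DMSO; orange points were called higher, blue points lower and white points were not called. With the oncogene 27 points are orange and 2 blue, and with rapamycin 14 are blue; both panels use the GFP-HRAS DMSO libraries, and the fitted value of ccl35.2, with no count in RFP DMSO, is no bound.

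The 3 tested cxcl11 ligands and the receptor genes CXCR3 and cxcr3.2 were among the lower calls. cxcr3.3 was not called, and neither were cxcl11.5, cxcl11.6 and cxcl11.7 when no filter was used (adjusted p = 0.195, 0.373 and 0.291). cxcl11.4 had 0.549, 0.40 and 0.0611 CPM in GFP-HRAS rapamycin, below each of the 3 GFP-HRAS DMSO libraries (-4.26 ± 0.71, adjusted p = 0.0074). cxcl11.1 had 0.399, 0.20 and 0.245 CPM in GFP-HRAS rapamycin (-3.52 ± 0.75, adjusted p = 0.0166). cxcl11.3 had 2.44, 2.8 and 0.978 CPM in GFP-HRAS rapamycin (-3.32 ± 0.78, adjusted p = 0.0221). No library of these copies overlapped between the groups. CXCR3 had 0.20, 0.133 and 0.183 CPM in GFP-HRAS rapamycin (-3.81 ± 0.59, adjusted p = 0.00635). cxcr3.2 had 1.15, 0.868 and 0.734 CPM in GFP-HRAS rapamycin (-1.96 ± 0.44, adjusted p = 0.0189). The neutrophil ligands did not pass the test. cxcl8a averaged 1.96 ± 0.166 CPM in GFP-HRAS rapamycin against 2.36 ± 0.442 in GFP-HRAS DMSO (-0.27 ± 0.47, adjusted p = 0.739). cxcl8b.1 averaged 6.89 ± 3.96 CPM in GFP-HRAS rapamycin against 9.98 ± 1.67 CPM in GFP-HRAS DMSO (-0.53 ± 0.52, adjusted p = 0.528), and cxcl8b.3 2.22 ± 1.12 CPM in GFP-HRAS rapamycin against 2.24 ± 0.677 CPM in GFP-HRAS DMSO (-0.01 ± 0.44, adjusted p = 0.994).

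Among the CC ligands, ccl39.5 had 3.19, 2.14 and 1.16 CPM in GFP-HRAS rapamycin (-3.75 ± 0.46, adjusted p = 0.00351). ccl35.1 had 3.09, 1.74 and 0.795 CPM in GFP-HRAS rapamycin (-2.98 ± 0.56, adjusted p = 0.0111). ccl39.3 had 0.349, 0.334 and 0.183 CPM in GFP-HRAS rapamycin (-2.83 ± 0.77, adjusted p = 0.0363), each below every GFP-HRAS DMSO library. ccl34a.3 had 4.34, 7.34 and 4.4 CPM in GFP-HRAS rapamycin and overlapped GFP-HRAS DMSO (0.06 ± 0.46, adjusted p = 0.951). ccl34a.4 had 21.9, 33.6 and 17.2 CPM in GFP-HRAS rapamycin, below every GFP-HRAS DMSO library, and missed the threshold (-1.25 ± 0.44, adjusted p = 0.088); DESeq2 (adjusted p = 0.0429) and library totals (0.0242) called it. ccl19a.1 (-2.57 ± 0.85, adjusted p = 0.0712) and ACKR4 (ENSDARG00000078729) (-1.64 ± 0.61, adjusted p = 0.0972) also missed it, and both were called lower with DESeq2 (adjusted p = 0.0377 and 0.0455) and with library totals (0.0304 and 0.0345). The CC and XC receptors among the lower calls included CCR8 with 2.0, 1.27 and 0.672 CPM in GFP-HRAS rapamycin (-3.55 ± 0.36, adjusted p = 0.0026) and ccr2 with 0.20, 0.267 and 0.183 CPM in GFP-HRAS rapamycin (-3.02 ± 0.50, adjusted p = 0.00733). XCR1 (ENSDARG00000054847) had 0.20, 0.267 and 0.0611 CPM in GFP-HRAS rapamycin (-3.15 ± 0.67, adjusted p = 0.0166). CCR9 (ENSDARG00000055186) had 5.89, 4.0 and 1.04 CPM in GFP-HRAS rapamycin, with replicate 3 the lowest (-2.7 ± 0.61, adjusted p = 0.0196). CXCR1 (ENSDARG00000054975) had 0.15, 0.0667 and 0.122 CPM in GFP-HRAS rapamycin (-2.96 ± 0.74, adjusted p = 0.0285). CXCR4 (ENSDARG00000041959) had 18.1, 9.01 and 6.05 CPM in GFP-HRAS rapamycin, below every GFP-HRAS DMSO library (-1.84 ± 0.43, adjusted p = 0.0217). CXCR4 (ENSDARG00000057633) had 4.84, 2.07 and 0.856 CPM in GFP-HRAS rapamycin and overlapped it (-0.78 ± 0.65, adjusted p = 0.454). Below the filter, CXCR5 had 1, 0 and 0 counts in GFP-HRAS rapamycin against 41, 26 and 4 in GFP-HRAS DMSO.

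Of the 14 calls with rapamycin in GFP-HRAS, 5 held in every alternative fit. The call of ccl39.3 was lost when GFP-HRAS DMSO replicate 1 (adjusted p = 0.121), GFP-HRAS DMSO replicate 2 (0.0701), GFP-HRAS rapamycin replicate 1 (0.062), GFP-HRAS rapamycin replicate 2 (0.0935) or GFP-HRAS rapamycin replicate 3 (0.112) was left out, with a replicate block (0.0619), and in a fit of the 2 groups alone (0.0823). That of ccl35.1 was lost in a fit of the 2 groups alone (adjusted p = 0.0512). That of CCR9 was lost when GFP-HRAS DMSO replicate 2 (adjusted p = 0.0542) or GFP-HRAS rapamycin replicate 2 (0.0601) was left out, and in a fit of the 2 groups alone (0.0594). That of XCR1 was lost when GFP-HRAS DMSO replicate 2 (adjusted p = 0.0589) or GFP-HRAS rapamycin replicate 3 (0.0529) was left out. The call of cxcl11.1 was lost when GFP-HRAS rapamycin replicate 2 (adjusted p = 0.0609) or GFP-HRAS rapamycin replicate 3 (0.0517) was left out. That of cxcl11.3 was lost when GFP-HRAS DMSO replicate 1 (adjusted p = 0.0513), GFP-HRAS DMSO replicate 3 (0.0558), GFP-HRAS rapamycin replicate 2 (0.06) or GFP-HRAS rapamycin replicate 3 (0.0647) was left out. That of CXCR1 (ENSDARG00000054975) was lost when GFP-HRAS DMSO replicate 2 (adjusted p = 0.107), GFP-HRAS DMSO replicate 3 (0.067), GFP-HRAS rapamycin replicate 2 (0.0961) or GFP-HRAS rapamycin replicate 3 (0.0821) was left out. That of cxcr3.2 was lost when GFP-HRAS DMSO replicate 1 (adjusted p = 0.0502), GFP-HRAS rapamycin replicate 2 (0.0628) or GFP-HRAS rapamycin replicate 3 (0.061) was left out. That of CXCR4 (ENSDARG00000041959) was lost when GFP-HRAS DMSO replicate 2 (adjusted p = 0.065), GFP-HRAS rapamycin replicate 2 (0.0735) or GFP-HRAS rapamycin replicate 3 (0.0642) was left out, and in a fit of the 2 groups alone (0.0545).

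GFP-HRAS rapamycin against RFP rapamycin asks what the oncogene changed under the inhibitor. 8 of the 80 members (44 tested) were called higher and none lower, where 10.4% of all genes tested were called higher and 7.71% lower. They were 3 CC ligands, 3 CXC ligands and 2 CXC receptors. Without GFP-HRAS rapamycin replicate 3, 13 members were called higher and 2, cxcl20 and cxcr3.3, lower, where 15.6% of all genes tested were called higher and 13.6% lower. The 8 calls held without that library, and their log2 fold changes moved by at most 0.414. The count was 4 without GFP-HRAS rapamycin replicate 1, GFP-HRAS rapamycin replicate 2 or RFP rapamycin replicate 2, and 5 without RFP rapamycin replicate 3. Those fits called 1008, 989, 881 and 2399 genes in all, in that order, in place of 2909. The macrophage marker sum was 141 to 453 CPM in GFP-HRAS rapamycin and 114 to 172 CPM in RFP rapamycin, and 2 of 12 markers were called higher. The neutrophil marker sum was 64.5 to 114 CPM in GFP-HRAS rapamycin and 63.7 to 99.7 CPM in RFP rapamycin, with none of 9 called. Of 9 endothelial markers 3 were called lower and 1 higher. Without GFP-HRAS rapamycin replicate 3, 4 macrophage markers were called higher, 1 neutrophil marker was called lower, and 5 endothelial markers were called lower and 1 higher. The part of these cell types in the result was not tested. Scaling by library totals moved the median log2 fold change of all genes to 0.12, and 1960 genes were called higher and 916 lower in place of 1672 and 1237.

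ccl39.5 had 3.19, 2.14 and 1.16 CPM in GFP-HRAS rapamycin and 0.0639, 0 and 0 CPM in RFP rapamycin, a ratio of counts of 105 (95% interval 18.4 to 4174, adjusted p = 0.00184). cxcl8b.3 had 3.49, 1.4 and 1.77 CPM in GFP-HRAS rapamycin and 0.0639, 0.0559 and 0.0753 CPM in RFP rapamycin, a ratio of counts of 36.4 (95% interval 12.2 to 179, adjusted p = 0.00171). Both genes were nearly without reads in RFP rapamycin. cxcl8b.1 had 11.4, 5.14 and 4.1 CPM in GFP-HRAS rapamycin and 1.28, 1.06 and 0.301 CPM in RFP rapamycin (2.94 ± 0.59, adjusted p = 0.00994). cxcl8a had 2.1, 2.0 and 1.77 CPM in GFP-HRAS rapamycin and 0.639, 0.447 and 0.0753 CPM in RFP rapamycin (2.29 ± 0.53, adjusted p = 0.0168). ccl34a.3 averaged 5.36 ± 1.72 CPM in GFP-HRAS rapamycin and 0.502 ± 0.201 CPM in RFP rapamycin (3.38 ± 0.54, adjusted p = 0.00432). ccl34a.4 averaged 24.2 ± 8.46 CPM in GFP-HRAS rapamycin and 7.71 ± 2.19 CPM in RFP rapamycin (1.65 ± 0.46, adjusted p = 0.0314). No library of any of these 6 genes overlapped between the groups. CXCR4 (ENSDARG00000057633) averaged 2.59 ± 2.04 CPM in GFP-HRAS rapamycin and 0.457 ± 0.246 CPM in RFP rapamycin (2.51 ± 0.75, adjusted p = 0.04). cxcr3.2 averaged 0.916 ± 0.211 CPM in GFP-HRAS rapamycin and 0.29 ± 0.123 CPM in RFP rapamycin (1.62 ± 0.50, adjusted p = 0.0436). The neutrophil ligand cxcl18b was not called. It had 22.7, 24.0 and 24.6 CPM in GFP-HRAS rapamycin and 15.6, 25.1 and 5.65 CPM in RFP rapamycin, which overlapped. CCR9 (ENSDARG00000055186) had 5.89, 4.0 and 1.04 CPM in GFP-HRAS rapamycin and 1.53, 0.559 and 0.527 CPM in RFP rapamycin, which overlapped, and it missed the threshold (2.06 ± 0.66, adjusted p = 0.0505). It was called higher with library totals (adjusted p = 0.0417), DESeq2 (0.0102), no filter (0.0434), a replicate block (0.0333), and without GFP-HRAS rapamycin replicate 3 (0.00861) or RFP rapamycin replicate 1 (0.049). Of the 8 calls, 4 held in every alternative fit. The call of cxcl8a was lost when GFP-HRAS rapamycin replicate 1 (adjusted p = 0.0519), GFP-HRAS rapamycin replicate 2 (0.052) or RFP rapamycin replicate 2 (0.0606) was left out, and in a fit of the 2 groups alone (0.0623). That of ccl34a.4 was lost when GFP-HRAS rapamycin replicate 1 (adjusted p = 0.0739), GFP-HRAS rapamycin replicate 2 (0.117), RFP rapamycin replicate 1 (0.071), RFP rapamycin replicate 2 (0.0751) or RFP rapamycin replicate 3 (0.0831) was left out. That of cxcr3.2 was lost when GFP-HRAS rapamycin replicate 1 (adjusted p = 0.144), GFP-HRAS rapamycin replicate 2 (0.101), RFP rapamycin replicate 1 (0.0702), RFP rapamycin replicate 2 (0.107) or RFP rapamycin replicate 3 (0.107) was left out, without the expression filter (0.0696), and in a fit of the 2 groups alone (0.0874). That of CXCR4 (ENSDARG00000057633) was lost when GFP-HRAS rapamycin replicate 1 (adjusted p = 0.184), GFP-HRAS rapamycin replicate 2 (0.0815), RFP rapamycin replicate 1 (0.115), RFP rapamycin replicate 2 (0.11) or RFP rapamycin replicate 3 (0.059) was left out, with a replicate block (0.0847), and in a fit of the 2 groups alone (0.0853).

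RFP rapamycin against RFP DMSO asks what the inhibitor changed without the oncogene. edgeR called none of the 80 members, and 0% of all genes tested were called higher and 0% lower; 4 members and 787 genes had an unadjusted p under 0.05, and DESeq2 called 0 members and 27 genes. ccl34a.3 had 0.703, 0.503 and 0.301 CPM in RFP rapamycin and 0.196, 0 and 0.0552 CPM in RFP DMSO, which did not overlap (2.55 ± 0.75, adjusted p = 0.994). cxcl18b averaged 15.4 ± 9.72 CPM in RFP rapamycin and 7.07 ± 3.14 CPM in RFP DMSO (1.13 ± 0.49, adjusted p = 0.994). The natural killer or cytotoxic sum was 59.8, 1.40 and 1.51 CPM in RFP rapamycin, replicate 1 standing apart, and 0.883 to 1.37 CPM in RFP DMSO.

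The difference between the rapamycin effects in GFP-HRAS and RFP was tested directly. CCR8 was the only member called, and lower: its rapamycin effect was -3.64 ± 0.53 (adjusted p = 0.0485) in GFP-HRAS minus RFP, where 0.0436% of all genes tested were called lower and 0.00623% higher. The CCR8 values were 2.0, 1.27 and 0.672 CPM in GFP-HRAS rapamycin and 16.1, 15.8 and 14.6 CPM in GFP-HRAS DMSO, beside 0.575, 0.67 and 0.979 CPM in RFP rapamycin and 0.783, 0.734 and 0.552 CPM in RFP DMSO. The T cell marker sum was 2.51 to 7.23 CPM in GFP-HRAS rapamycin, 28.5 to 85.2 CPM in GFP-HRAS DMSO, 1.53 to 2.90 CPM in RFP rapamycin and 1.49 to 3.20 CPM in RFP DMSO, and its part in the CCR8 result was not tested. Of the 44 tested members, 15 had an unadjusted p under 0.05, as did 2303 of all 16044 genes tested. DESeq2 called 7 members, all lower, and 519 genes in all. The effect on CXCR3 differed by -4.58 ± 0.87 (adjusted p = 0.084) and was not called. Library totals (adjusted p = 0.0369), DESeq2 (0.00247) and the fit without GFP-HRAS DMSO replicate 3 (0.0442) called it lower. The call of CCR8 was lost when GFP-HRAS DMSO replicate 1 (adjusted p = 0.0517), GFP-HRAS DMSO replicate 2 (0.112), GFP-HRAS rapamycin replicate 2 (0.113), RFP DMSO replicate 2 (0.14), RFP DMSO replicate 3 (0.167), RFP rapamycin replicate 1 (0.063), RFP rapamycin replicate 2 (0.112) or RFP rapamycin replicate 3 (0.109) was left out. Without GFP-HRAS DMSO replicate 3, or without RFP DMSO replicate 1, 2 members were called, and 31 and 81 genes in all. Without GFP-HRAS rapamycin replicate 3, 1 member was called, and 7 genes in all.

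7 dpci against RFP DMSO sets injured hearts beside RFP hearts; beside the injury, they differ in strain, 4-OHT, vehicle and count table, which cannot be told apart from it. 23 of the 80 members (45 tested) were called higher and none lower, where 18.8% of all 16421 genes tested were called higher and 17.7% lower. They were 9 CC ligands, 7 CXC ligands, 4 CC or XC receptors, 2 CXC receptors and 1 atypical receptor. Among them, ccl35.2, ccl39.3, cxcl11.1 and cxcl11.4 reached the filter's cutoff only in GFP-HRAS DMSO, a group outside this comparison. Scaling by library totals moved the median log2 fold change of all genes to 0.14 and called 3517 genes higher and 2127 lower, in place of 3079 and 2905. The macrophage marker sum was 1168 to 1267 CPM in 7 dpci and 97.0 to 293 CPM in RFP DMSO, with 9 of 12 called higher; the neutrophil sum was 75.9 to 96.1 CPM in 7 dpci and 71.2 to 116 CPM in RFP DMSO, with none of 9 called higher and 2 lower. lyz and 1 MPEG1 gene were at 0 in both groups. The epicardium and fibroblast sum was 2739.5 to 2871 CPM in 7 dpci and 158 to 187 CPM in RFP DMSO, with 9 of 10 called higher and 1 lower. Of 9 endothelial markers 4 were called lower and 1 higher. The part of these cell types in the result was not tested.

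**Figure D4:**
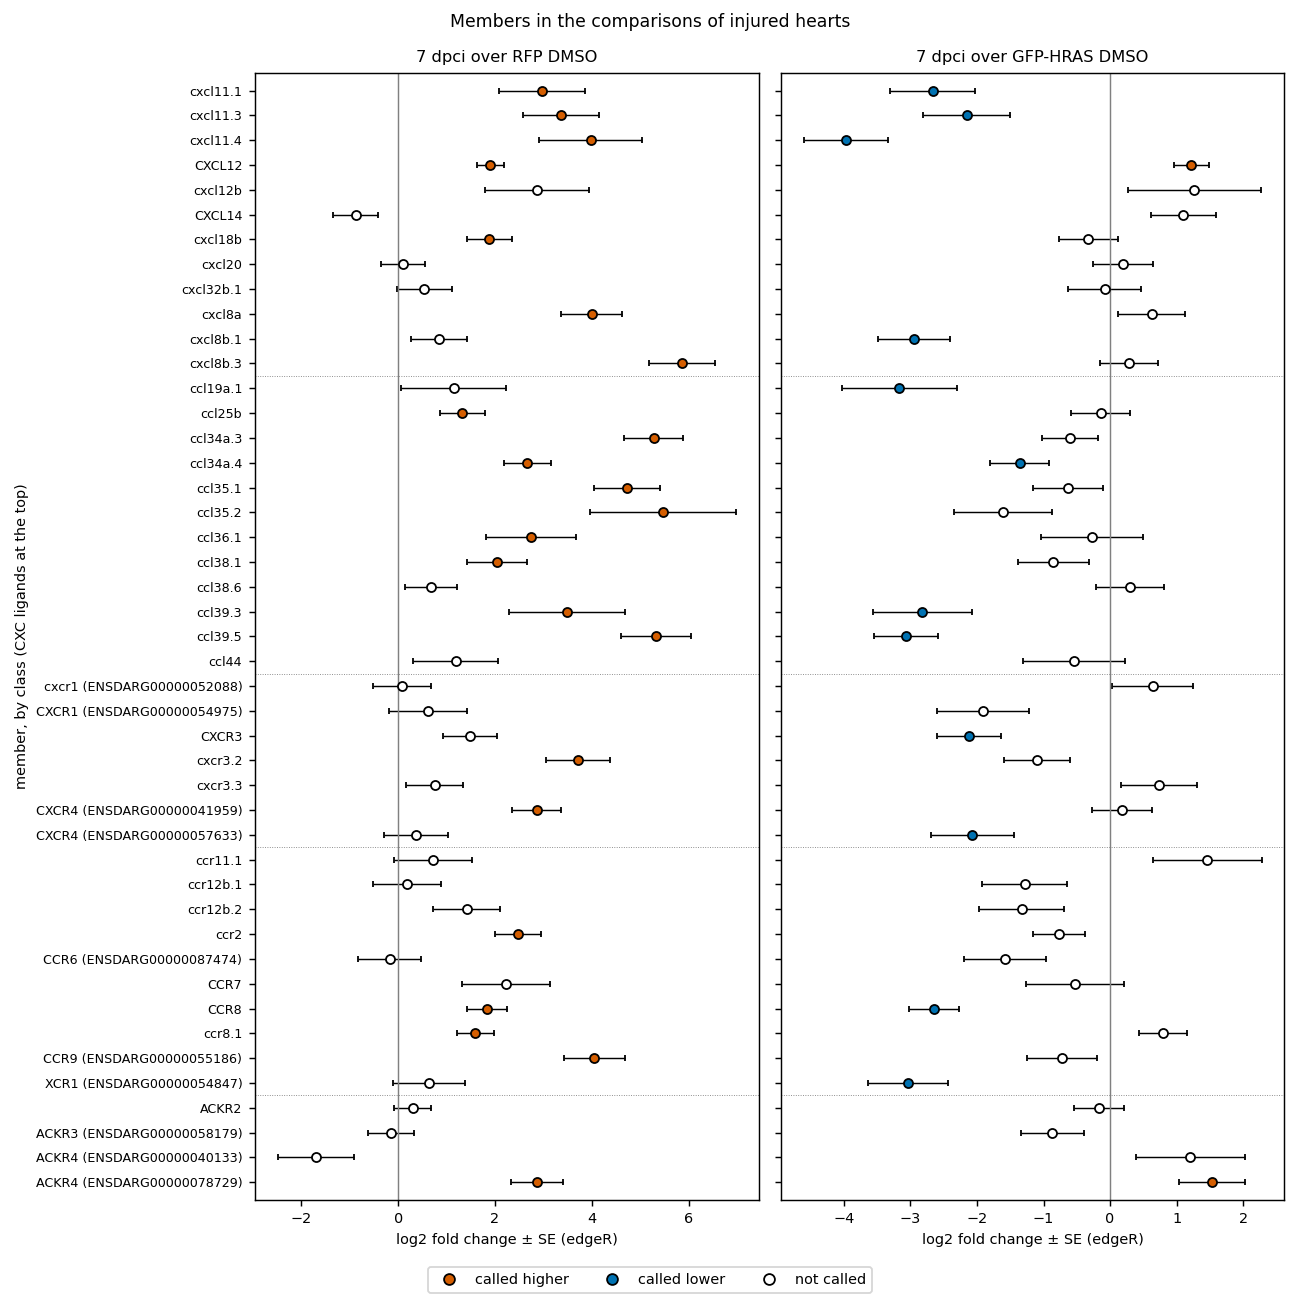
Log2 fold change ± standard error of the 45 members tested, by class, for 7 dpci over RFP DMSO and for 7 dpci over GFP-HRAS DMSO; orange points were called higher, blue points lower and white points were not called. CXCL12 and ACKR4 (ENSDARG00000078729) are orange in both panels, and the fitted value of ccl35.2 against RFP DMSO is no bound.

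CXCL12 had 116, 125 and 85.4 CPM in 7 dpci, above every library of the other 4 groups, and rose against RFP DMSO (1.9 ± 0.27, adjusted p = 0.00041). cxcl12b had 15.9, 24 and 49 CPM in 7 dpci and 0, 8.38 and 3.7 CPM in RFP DMSO, which did not overlap, and missed the threshold (2.87 ± 1.07, adjusted p = 0.0506). Library totals (0.0481), no filter (0.0446), a fit of the 2 groups alone (0.0422) and the fit without RFP DMSO replicate 2 (0.0446) called it higher. The receptor gene CXCR4 (ENSDARG00000041959) had 20.04, 47.8 and 66.4 CPM in 7 dpci and rose (2.86 ± 0.50, adjusted p = 0.00112). CXCR4 (ENSDARG00000057633) had 1.01, 1.08 and 1.09 CPM in 7 dpci and was not called (0.37 ± 0.66, adjusted p = 0.689). ACKR3 (ENSDARG00000058179) averaged 4.59 ± 1.62 CPM in 7 dpci and 5.09 ± 1.9 CPM in RFP DMSO (-0.15 ± 0.47, adjusted p = 0.835). ACKR4 (ENSDARG00000078729) had 5.85, 7.01 and 4.27 CPM in 7 dpci and 1.31, 0.55 and 0.496 CPM in RFP DMSO, with no overlap (2.87 ± 0.54, adjusted p = 0.00178). The other gene, ACKR4 (ENSDARG00000040133), had 1.49, 1.35 and 2.08 CPM in 7 dpci and 6.4, 2.45 and 7.17 CPM in RFP DMSO, which did not overlap. It was not called, whereas an edgeR fit of the 2 groups alone called it lower (log2 fold change -1.67, adjusted p = 0.0154).

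Of the 4 neutrophil ligands tested, 3 rose against RFP DMSO. cxcl8b.3 had 4.22, 2.32 and 1.64 CPM in 7 dpci, a ratio of counts over RFP DMSO of 69.5 (95% interval 18.9 to 579, adjusted p = 0.000167). cxcl8a had 1.58, 3.07 and 6.29 CPM in 7 dpci (4.0 ± 0.63, adjusted p = 0.000657). cxcl18b had 21.5, 24.6 and 31.8 CPM in 7 dpci (1.88 ± 0.46, adjusted p = 0.00741). cxcl8b.1, by contrast, had 1.01, 1.67 and 1.2 CPM in 7 dpci, overlapped RFP DMSO and was not called (0.84 ± 0.57, adjusted p = 0.268). cxcl11.4 had 0.336, 0.377 and 0.547 CPM in 7 dpci, a ratio of counts of 20.7 (95% interval 3.38 to 852, adjusted p = 0.0111). cxcl11.3 had 4.41, 4.9 and 4.7 CPM in 7 dpci (3.36 ± 0.79, adjusted p = 0.0056). cxcr3.2 had 1.2, 3.13 and 0.711 CPM in 7 dpci (3.71 ± 0.66, adjusted p = 0.00127).

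The CC ligands with the largest differences were again the fish-lineage genes. ccl39.5 had 5.27, 3.61 and 1.59 CPM in 7 dpci (5.33 ± 0.72, adjusted p = 0.000316). ccl34a.3 had 2.88, 3.83 and 3.45 CPM in 7 dpci (5.27 ± 0.62, adjusted p = 0.000175). ccl35.1 had 8.44, 15.5 and 4.92 CPM in 7 dpci (4.72 ± 0.68, adjusted p = 0.00042). ccl35.2 had 0.384, 0.269 and 0.219 CPM in 7 dpci and no count in RFP DMSO, so it was at least 4.89-fold higher against a floor of 3 counts over that group (adjusted p = 0.0156). ccl39.3 had 0.384, 0.377 and 0.109 CPM in 7 dpci, a ratio of counts of 14.7 (95% interval 2.3 to 613, adjusted p = 0.0368). These CC ligands were above RFP DMSO in all 3 injured libraries. CCR9 (ENSDARG00000055186) had 10.9, 14 and 18.5 CPM in 7 dpci (4.05 ± 0.63, adjusted p = 0.000615). ccr2 had 1.29, 0.916 and 0.93 CPM in 7 dpci (2.48 ± 0.48, adjusted p = 0.00192). ccr8.1 had 1.82, 2.48 and 2.95 CPM in 7 dpci (1.59 ± 0.38, adjusted p = 0.00635). CCR8 had 2.01, 3.88 and 1.53 CPM in 7 dpci (1.84 ± 0.41, adjusted p = 0.00463). CCR7, tested only in the fit of all 15 libraries, had 0.336, 0.862 and 0.602 CPM in 7 dpci and 0.196, 0.183 and 0 CPM in RFP DMSO and was not called (2.22 ± 0.91, adjusted p = 0.0714). CXCR3 was not called (1.49 ± 0.56, adjusted p = 0.0512) but was with library totals (adjusted p = 0.0353) and in a fit of the 2 groups alone (0.047). Of the 23 calls, 18 held in every alternative fit that tested them. The fit of the 2 groups alone tested 34 members and left some of the 23 untested. The call of ccl25b was lost when RFP DMSO replicate 2 (adjusted p = 0.144), RFP DMSO replicate 3 (0.137), 7 dpci replicate 1 (0.102), 7 dpci replicate 2 (0.0549) or 7 dpci replicate 3 (0.0821) was left out, and in a fit of the 2 groups alone (0.0509). That of ccl36.1 was lost when RFP DMSO replicate 1 (adjusted p = 0.098), RFP DMSO replicate 2 (0.113), 7 dpci replicate 1 (0.0914) or 7 dpci replicate 3 (0.0845) was left out. That of ccl38.1 was lost when RFP DMSO replicate 2 (adjusted p = 0.0665), RFP DMSO replicate 3 (0.0713) or 7 dpci replicate 3 (0.0847) was left out. That of ccl39.3 was lost when RFP DMSO replicate 1 (adjusted p = 0.0919), RFP DMSO replicate 2 (0.116), 7 dpci replicate 1 (0.0913) or 7 dpci replicate 2 (0.0885) was left out. That of cxcl11.1 was lost when RFP DMSO replicate 2 (adjusted p = 0.0747) or RFP DMSO replicate 3 (0.0669) was left out.

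7 dpci against GFP-HRAS DMSO sets the injured hearts beside the oncogene hearts, with the same limits. 12 of the 80 members (45 tested) were called lower and 2 higher, where 15.5% of all genes tested were called lower and 13.3% higher. The 2 higher calls were CXCL12 and ACKR4 (ENSDARG00000078729). The lower calls were 4 CC ligands, 4 CXC ligands, 2 CXC receptors and 2 CC or XC receptors. Among these, cxcl11.1, cxcl11.4, ccl19a.1, ccl39.3 and XCR1 (ENSDARG00000054847) reached the filter's cutoff only in GFP-HRAS DMSO. Scaling by library totals moved the median log2 fold change of all genes to -0.39 and called 1290 genes higher and 4617 lower, in place of 2192 and 2541. The macrophage marker sum was 1168 to 1267 CPM in 7 dpci and 3258 to 4682 CPM in GFP-HRAS DMSO, with 2 of 12 called lower, and the T cell marker sum was 4.7 to 8.57 CPM in 7 dpci and 28.5 to 85.2 CPM in GFP-HRAS DMSO, with 5 of 9 called lower; lck was at 0 in 7 dpci. The epicardium and fibroblast sum was 2739.5 to 2871 CPM in 7 dpci and 593 to 1520 CPM in GFP-HRAS DMSO, with 6 of 10 called higher. The natural killer or cytotoxic sum was 3.56 to 7.72 CPM in 7 dpci and 72.7 to 512 CPM in GFP-HRAS DMSO, with 6 of 10 called lower, and 4 of 7 cardiomyocyte markers were called higher and 1 lower. The part of these cells was not tested. CXCL12 rose by 1.22 ± 0.27 (adjusted p = 0.00545) and ACKR4 (ENSDARG00000078729) by 1.53 ± 0.50 (adjusted p = 0.0353) on the log2 scale, and both were above every GFP-HRAS DMSO library.

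The lower calls were led by cxcl11.4, with 0.336, 0.377 and 0.547 CPM in 7 dpci against 9.64, 4.38 and 5.94 CPM in GFP-HRAS DMSO (-3.97 ± 0.64, adjusted p = 0.00111). ccl19a.1 had 0.144, 0.108 and 0.438 CPM in 7 dpci against 1.51, 1.07 and 3.71 CPM in GFP-HRAS DMSO (-3.17 ± 0.86, adjusted p = 0.0158). ccl39.5 had 5.27, 3.61 and 1.59 CPM in 7 dpci against 34.3, 19.4 and 34 CPM in GFP-HRAS DMSO (-3.06 ± 0.48, adjusted p = 0.00102). In each the groups did not overlap. cxcl8b.1 had 1.01, 1.67 and 1.2 CPM in 7 dpci against 9.5, 8.6 and 11.8 CPM in GFP-HRAS DMSO (-2.94 ± 0.54, adjusted p = 0.00215), and XCR1 (ENSDARG00000054847) had 0.24, 0.162 and 0.164 CPM in 7 dpci against 2.05, 1.84 and 0.917 CPM in GFP-HRAS DMSO (-3.04 ± 0.61, adjusted p = 0.00346). ccl39.3 averaged 0.29 ± 0.156 CPM in 7 dpci and 2.11 ± 1.99 CPM in GFP-HRAS DMSO (-2.82 ± 0.74, adjusted p = 0.0133). cxcl11.1 averaged 0.522 ± 0.0691 CPM in 7 dpci and 3.35 ± 1.74 CPM in GFP-HRAS DMSO (-2.67 ± 0.64, adjusted p = 0.00855). CCR8 averaged 2.48 ± 1.24 CPM in 7 dpci and 15.5 ± 0.801 CPM in GFP-HRAS DMSO (-2.64 ± 0.38, adjusted p = 0.000681). cxcl11.3 averaged 4.67 ± 0.248 CPM in 7 dpci and 20.8 ± 9.87 CPM in GFP-HRAS DMSO (-2.15 ± 0.66, adjusted p = 0.0265). CXCR3 averaged 0.574 ± 0.0714 CPM in 7 dpci and 2.52 ± 1.25 CPM in GFP-HRAS DMSO (-2.12 ± 0.48, adjusted p = 0.00628). CXCR4 (ENSDARG00000057633) averaged 1.06 ± 0.0464 CPM in 7 dpci and 4.47 ± 2.48 CPM in GFP-HRAS DMSO (-2.07 ± 0.63, adjusted p = 0.0259). ccl34a.4 averaged 22.3 ± 8.79 CPM in 7 dpci and 57.3 ± 18.9 CPM in GFP-HRAS DMSO (-1.36 ± 0.44, adjusted p = 0.0357). By contrast CXCR4 (ENSDARG00000041959) averaged 44.7 ± 23.3 CPM in 7 dpci and 39.5 ± 8.72 CPM in GFP-HRAS DMSO with overlapping libraries (0.18 ± 0.46, adjusted p = 0.795).

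Members that 2 or more alternatives called and edgeR with TMM factors did not were CXCR1 (ENSDARG00000054975), cxcr3.2 and CCR6, each lower. With library totals their adjusted p was 0.0231, 0.0439 and 0.0304. Of the 14 calls in 7 dpci against GFP-HRAS DMSO, 8 held in every alternative fit. The call of ACKR4 (ENSDARG00000078729) was lost when any 1 of the 6 libraries was left out (adjusted p = 0.0504 to 0.109), with scaling by library totals (0.0751), and with a replicate block (0.0556). That of ccl19a.1 was lost when GFP-HRAS DMSO replicate 3 (adjusted p = 0.0701), 7 dpci replicate 1 (0.0684) or 7 dpci replicate 2 (0.0656) was left out. That of ccl39.3 was lost when GFP-HRAS DMSO replicate 1 (adjusted p = 0.0811) or 7 dpci replicate 3 (0.0589) was left out. That of ccl34a.4 was lost when GFP-HRAS DMSO replicate 1 (adjusted p = 0.126), GFP-HRAS DMSO replicate 3 (0.0754), 7 dpci replicate 1 (0.106) or 7 dpci replicate 2 (0.128) was left out, and with a replicate block (0.054). That of cxcl11.3 was lost when GFP-HRAS DMSO replicate 1 (adjusted p = 0.0931), GFP-HRAS DMSO replicate 3 (0.0635), 7 dpci replicate 1 (0.0878), 7 dpci replicate 2 (0.0761) or 7 dpci replicate 3 (0.0815) was left out. That of CXCR4 (ENSDARG00000057633) was lost when GFP-HRAS DMSO replicate 2 (adjusted p = 0.131), 7 dpci replicate 1 (0.0824), 7 dpci replicate 2 (0.0733) or 7 dpci replicate 3 (0.0743) was left out. Below the filter, the CCL20 relative ccl20b (ENSDARG00000094511) was called higher and ccl39.2 lower when no filter was used. ccl20b had 8, 12 and 13 counts in 7 dpci and 1, 4 and 2 counts in GFP-HRAS DMSO, and ccl39.2 had 1, 1 and 1 counts in 7 dpci and 13, 6 and 28 counts in GFP-HRAS DMSO.

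7 dpci against GFP-HRAS rapamycin has the same limits. In addition, GFP-HRAS rapamycin received 0.5 uM rapamycin over 16 days and 7 dpci received none, which cannot be told apart from the injury. 8 of the 80 members (45 tested) were called higher and 1 lower, where 8.36% of all genes tested were called higher and 10.2% lower. Scaling by library totals called 1636 genes higher and 965 lower, in place of 1373 and 1673. Without GFP-HRAS rapamycin replicate 3, 9 of 50 tested members were called higher and 1 lower. In that fit 9.55% of all genes tested were called higher and 10.9% lower. The log2 fold changes of the 9 members called with that library moved by at most 0.437. CXCL12 rose (1.6 ± 0.27, adjusted p = 0.00251), as did CXCR4 (ENSDARG00000041959) (2.01 ± 0.48, adjusted p = 0.0129) and ACKR4 (ENSDARG00000078729) (3.17 ± 0.55, adjusted p = 0.00296). The receptors ccr2 (2.25 ± 0.46, adjusted p = 0.00664), ccr8.1 (2.0 ± 0.39, adjusted p = 0.00508) and CCR9 (ENSDARG00000055186) (1.98 ± 0.55, adjusted p = 0.0258) were also called higher. So were the CC ligands ccl35.1 (2.34 ± 0.57, adjusted p = 0.0144) and ccl38.6 (1.75 ± 0.56, adjusted p = 0.0451). cxcl8b.1 fell: it had 1.01, 1.67 and 1.2 CPM in 7 dpci and 11.4, 5.14 and 4.1 CPM in GFP-HRAS rapamycin, with no overlap (-2.41 ± 0.53, adjusted p = 0.00902). The macrophage marker sum was 1168 to 1267 CPM in 7 dpci and 141 to 453 CPM in GFP-HRAS rapamycin, with 6 of 12 called higher. The epicardium and fibroblast sum was 2739.5 to 2871 CPM in 7 dpci and 155 to 750.2 CPM in GFP-HRAS rapamycin, with 9 of 10 called higher. Without GFP-HRAS rapamycin replicate 3, 7 of these 10 and 6 macrophage markers were called higher. The part of these cells in the result was not tested. The call of ccl38.6 was lost when any 1 of the 6 libraries was left out (adjusted p = 0.0814 to 0.129), without the expression filter (0.0646), and with a replicate block (0.063). That of CCR9 (ENSDARG00000055186) was lost when GFP-HRAS rapamycin replicate 2 (adjusted p = 0.0764), 7 dpci replicate 2 (0.0611) or 7 dpci replicate 3 (0.0832) was left out, and in a fit of the 2 groups alone (0.0552). That of ccl35.1 was lost when GFP-HRAS rapamycin replicate 2 (adjusted p = 0.0576) or 7 dpci replicate 2 (0.0654) was left out. That of CXCR4 (ENSDARG00000041959) was lost when GFP-HRAS rapamycin replicate 2 (adjusted p = 0.0582) or 7 dpci replicate 3 (0.0567) was left out.

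The sums by class were described without a test, and each sum weights the members with most counts. CXC ligands summed to 189 ± 10.5 CPM in 7 dpci, 84.5 ± 17.4 in GFP-HRAS rapamycin, 147 ± 19.1 in GFP-HRAS DMSO, 64.1 ± 13.5 in RFP rapamycin and 53.1 ± 9.70 in RFP DMSO (SD, n = 3 each). CC ligands summed to 55.9 ± 4.36 CPM in 7 dpci, 47.3 ± 12.2 in GFP-HRAS rapamycin, 133 ± 38.9 in GFP-HRAS DMSO, 19.2 ± 1.92 in RFP rapamycin and 10.4 ± 6.91 in RFP DMSO. The CXC ligand order rests on CXCL12: without it the other 17 summed to 80.3 ± 23.0 CPM in 7 dpci and 101 ± 21.6 CPM in GFP-HRAS DMSO, with overlapping libraries, and 48.5 ± 5.98 in GFP-HRAS rapamycin, 32.8 ± 14.4 in RFP rapamycin and 24.0 ± 5.17 in RFP DMSO. CXC receptors summed to 51.7 ± 24.0 CPM in 7 dpci, 16.6 ± 7.73 in GFP-HRAS rapamycin, 54.0 ± 12.1 in GFP-HRAS DMSO, 10.5 ± 4.49 in RFP rapamycin and 9.74 ± 1.76 in RFP DMSO. CC and XC receptors summed to 27.3 ± 3.79 CPM in 7 dpci, 10.7 ± 2.84 in GFP-HRAS rapamycin, 53.1 ± 14.3 in GFP-HRAS DMSO, 6.33 ± 1.75 in RFP rapamycin and 6.57 ± 2.77 in RFP DMSO. The atypical receptors summed to 13.2 ± 1.18 CPM in 7 dpci, 11.7 ± 4.61 in GFP-HRAS rapamycin, 12.4 ± 4.58 in GFP-HRAS DMSO, 9.33 ± 3.39 in RFP rapamycin and 12.2 ± 2.43 in RFP DMSO. Each class except the atypical receptors was higher in all GFP-HRAS DMSO libraries than in any RFP DMSO library.

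**Figure D5:**
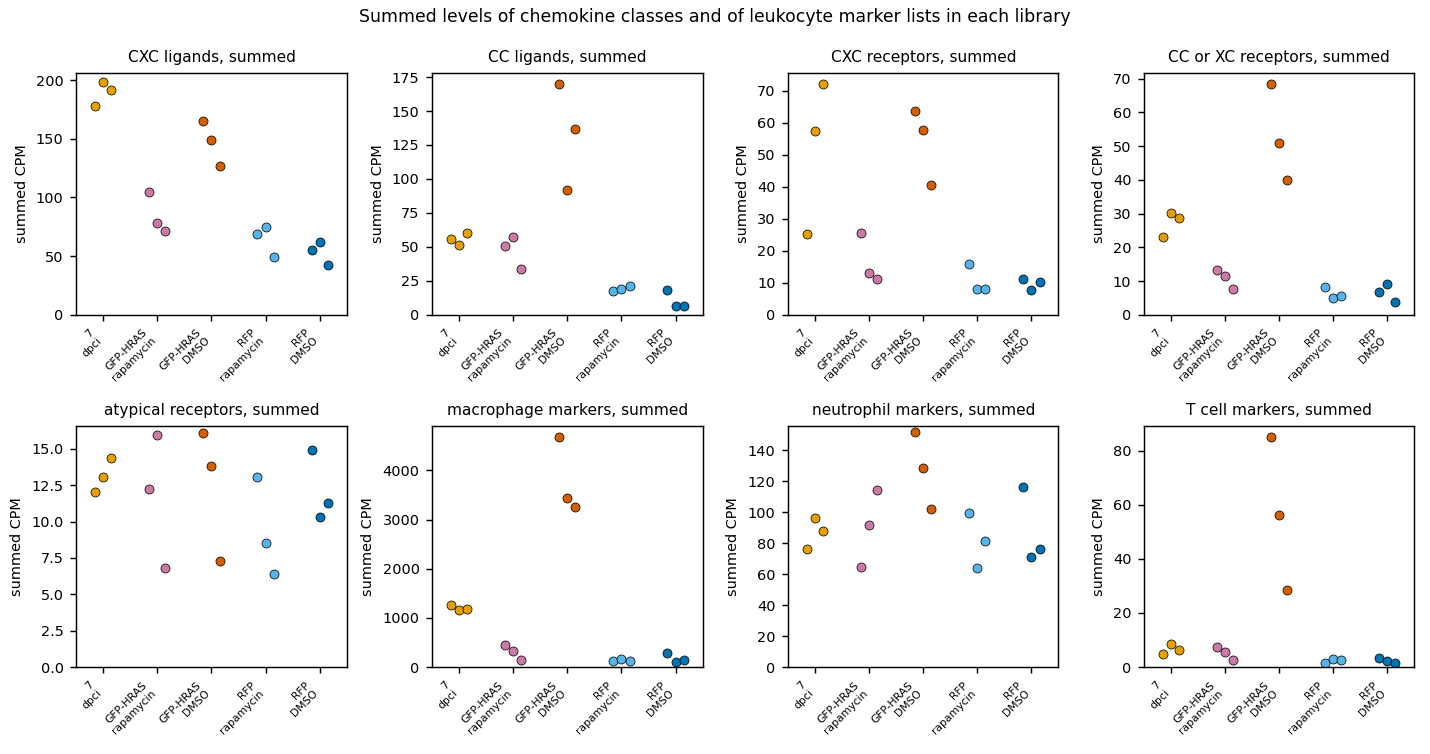
Summed CPM per library (points) for the 5 member classes and for the macrophage, neutrophil and T cell marker lists, by group. The CC ligand and macrophage panels are highest in GFP-HRAS DMSO, and the CXC ligand panel is highest in 7 dpci, an order that does not hold without CXCL12.

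Downstream of the receptors, 45 genes of G protein, phosphoinositide 3-kinase, Rac and integrin signalling were followed, 39 of them tested in the transgenic fit. In GFP-HRAS DMSO against RFP DMSO 24 were called higher and 4 lower, where 24.9% and 22.6% of all genes tested were, with a median log2 fold change of 1.29, against 0.02 over all genes. With rapamycin in GFP-HRAS, none was called higher and 15 lower, where 5.83% and 6.3% of all genes tested were (median -0.71, against 0.01 over all genes). Without GFP-HRAS rapamycin replicate 3, 12 of 40 tested were lower (median -0.87), where 2.85% of all genes tested were. In 7 dpci against RFP DMSO 19 of 40 tested were higher and 3 lower, where 18.8% and 17.7% of all genes tested were (median 0.88, against 0.02 over all genes), and in 7 dpci against GFP-HRAS DMSO 1 was higher and 12 lower, where 13.3% and 15.5% were (median -0.41, against -0.05 over all genes). The 4 with most counts were gnb1b, gnb1a and gnai1, which encode G protein subunits, and CDC42, a small GTPase of cell polarity. In GFP-HRAS DMSO against RFP DMSO their log2 fold changes were 0.41 ± 0.14 (adjusted p = 0.0285) for gnb1b, 0.70 ± 0.15 (0.00313) for gnb1a, 1.21 ± 0.20 (0.000992) for gnai1 and -0.56 ± 0.16 (0.0127) for CDC42. The sum of 7 pan-leukocyte markers, with 7 called higher in that comparison, was 571 to 906 CPM in GFP-HRAS DMSO and 52.0 to 117 CPM in RFP DMSO. Its part in these counts was not tested. The signalling and pan-leukocyte lists both named coro1a and wasb, so they are not separate readouts. For the interferon list 7 of 17 tested were lower with rapamycin in GFP-HRAS (median -1.14, against 0.01 over all genes), where 6.3% of all genes tested were. Without GFP-HRAS rapamycin replicate 3, 7 of 18 tested were lower (median -1.46), where 2.85% of all genes tested were. In 7 dpci, 16 of 18 tested were lower than in GFP-HRAS DMSO (median -2.08, against -0.05 over all genes), where 15.5% of all genes tested were. Against RFP DMSO, 6 of the 18 were higher in 7 dpci and 3 lower, where 18.8% and 17.7% of all genes tested were. The median there was 0.14, against 0.02 over all genes. The summed level of the interferon list was 345, 485 and 750.0 CPM in GFP-HRAS rapamycin, replicate 3 being the highest, and 1001, 535 and 623 CPM in GFP-HRAS DMSO, so the sums overlapped.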

How the data were processed

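Ventricle messenger RNA was extracted with QIAzol, and the CORALL mRNA kit, which tags molecules with UMIs, gave the libraries, per the labels' protocols. featureCounts 1.6.0, HISAT2 2.1.0, UMI-tools 1.1.1 and build GRCz11 are listed, per the submitters' processing notes. Neither annotation nor strand setting is given in the sources used here, so antisense partners may share counts. The authors deposited whole-number counts per gene, without normalization, in 2 tables of 32520 genes. Titles gave the groups; UR in a column name was taken to mean UAS:RFP. Of 18 samples in the labels, 3 uninjured ones were not analysed here.

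The test was edgeR 4.0.16 under R 4.3.3 (TMM factors, filterByExpr by group with a minimum count of 10, glmQLFit, glmQLFTest), Benjamini-Hochberg adjustment over all genes and a call at an adjusted p under 0.05. The 12 transgenic libraries made 1 fit of 16044 genes, and all 15 libraries another of 16421 genes for comparisons with 7 dpci. Standard errors are the absolute log2 fold change over the root of F. CPM used TMM factors over 15 libraries; log2 CPM used a prior count of 2. A group at 0 was set to 3 counts over the group, and a group with 1 to 3 counts got an exact 95% interval; both cover counting error only. Alternatives were library totals, DESeq2 1.42.0, no filter, a replicate block, the 2 groups alone and leaving out each library; list counts without GFP-HRAS rapamycin replicate 3 and the CXC sum without CXCL12 were added after seeing the data. The code was tested on simulated data. Members and lists were chosen with earlier results of these data known. Genes were named where they had 1 of the 10 largest called changes in a direction, or belonged to a ligand and receptor system listed with the design. Symbols came from a table that names 29201 of the genes; of the list symbols, those without a match were left out.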

Additional observations from a re-analysis of the deposited data

Results flagged for a closer look

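The rapamycin effect on CCR8 (ENSDARG00000086616) differed between the lines by -3.64 ± 0.53 on the log2 scale, GFP-HRAS minus RFP (edgeR interaction, adjusted p = 0.0485), which is why it is singled out. All 3 GFP-HRAS rapamycin libraries lay below all 3 GFP-HRAS DMSO libraries, whereas the RFP rapamycin and RFP DMSO libraries overlapped. The call was lost without any of 8 of the 12 libraries, with adjusted p from 0.0517 to 0.167.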

How the results depend on the processing

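No call of a member changed direction in any alternative. Of the called members, those called in every alternative that tested them were 24 of 29 in GFP-HRAS DMSO against RFP DMSO. They were 5 of 14 with rapamycin in GFP-HRAS and 4 of 8 in GFP-HRAS rapamycin against RFP rapamycin. In the difference of rapamycin effects they were 0 of 1. For 7 dpci they were 18 of 23 against RFP DMSO, 8 of 14 against GFP-HRAS DMSO and 5 of 9 against GFP-HRAS rapamycin. In 7 dpci against RFP DMSO, the fit of the 2 groups alone left some called members untested. The counts of called members that moved by over 1.5 times were these. In GFP-HRAS rapamycin against RFP rapamycin, the 2 groups alone, with fewer members tested, gave 5, and leaving out a library gave 4 to 15. Genes called in all were 838 with the 2 groups alone and 881 to 4864 when a library was left out. With rapamycin in GFP-HRAS, leaving out a library gave 7 to 14, with 533 to 2305 genes called in all. The difference of rapamycin effects had 2 calls with library totals, 7 with DESeq2 and 0 to 2 when a library was left out. All genes called for it were 8 in the main fit, 125 with library totals and 519 with DESeq2. The cause of these moves was not tested. With the replicate block the counts were 29, 13, 8, 0 and 1 in GFP-HRAS DMSO against RFP DMSO, rapamycin in GFP-HRAS, GFP-HRAS against RFP in rapamycin, rapamycin in RFP and the difference of effects, and 23, 12 and 8 in 7 dpci against RFP DMSO, GFP-HRAS DMSO and GFP-HRAS rapamycin. No pairing by replicate number was seen: 2 of 18 same-numbered pairs had a correlation over 0.1 (-0.333 to 0.164), and 1 of 12 libraries was closest to its own number. The labels do not say what the numbers mean, and this check cannot exclude a shared batch behind them. 7 dpci against uninjured hearts and the promoter and protein descriptions were not run. Members with few counts are limited by depth, and no 2 libraries of the same group were alike within sampling noise (chi-square per degree of freedom 17.7 to 182).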
